A study of Mus musculus with 4 samples.

Results

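The 10 genes described here encode effector cytokines that lymphocytes make in bursts after activation: Il17a, Il17f, Csf2, Ifng, Il2, Il4, Il5, Il9, Il10 and Il13. They were taken as probe sets of the value table that the platform annotation assigns to 1 of these genes alone, and where a gene had several such probe sets the one with the highest mean was to be used. All 10 genes were found, each with 1 probe set, among 19938 singly named genes. Levels were read on 4 arrays of total RNA from CCR6+ group 3 innate lymphoid cells (ILC3), lymphocytes without rearranged antigen receptors, from mesenteric lymph nodes of naive C57BL/6 mice. Per the labels, nodes were dispersed by mechanical force and CD127+ CD90.2+ CCR6+ ST2- cells were collected into Trizol. The labels name no genetic change, no treatment, no culture step and no age, and they do not mention a step that removed cells carrying B or T cell markers. The 4 samples form 1 group, so no condition or cell type was compared. Nothing in the labels says whether they came from separate animals or pools, so the spread between arrays may be partly technical.

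ILC3 of the CCR6+ kind include lymphoid tissue inducer-like cells. In ILC3, interleukin 23 and interleukin 1 beta are known to switch on Il17a, Il17f, Il22 and Csf2, while the same cytokine genes are read at a low rate in cells that have not met these signals. Effector cytokine RNA is also short-lived, because proteins that bind AU-rich or stem-loop elements in it recruit the machinery of RNA decay. Ifng is the product of type 1 cells, Il4, Il5, Il9 and Il13 belong to type 2 cells, Il2 is a growth factor of activated T cells, and Il10 restrains inflammation.

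The values are log2 levels from robust multi-array average (RMA), and a level depends on how well a probe set binds. A gene's level was therefore judged by the background of the arrays and not by that of another single gene. The exception is a limit set on each array by the highest of a list of genes of other organs, which depends on how well that gene's probe set binds. Receptor genes of smell and taste (olfactory, vomeronasal, trace amine, bitter taste) served as background, 1225 in all, with a median of 4.25 and a 95th percentile of 5.82 over their mean levels. A gene is called above background where its one-sided rank p among these genes is under 0.05 after Benjamini-Hochberg adjustment across all named genes. The lowest mean so called was 6.37. Of all named genes 46.2% were called, and of the background genes themselves 27, or 2.20%. Of 15 genes of liver, muscle, brain, testis and other organs 5 were called, with a highest value on any array of 7.42, so calls below that level also occur for genes of unrelated organs.

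The regulatory sequence just upstream of 4 of the genes is shown because these 4, Il17a, Il17f, Csf2 and Il13, had an unadjusted rank p under 0.05 and came nearest to or past the calling level. Each run is the 250 bases before the RefSeq gene start, in the direction of the gene, from build GRCm38.p6. The windows end at the base before that start and hold none of the transcript that begins there. Positions are chr1:20730655-20730904 on the plus strand for Il17a, chr1:20784271-20784520 on the minus strand for Il17f, chr11:54249900-54250149 on the minus strand for Csf2 and chr11:53634703-53634952 on the minus strand for Il13. Capitals mark matches on either strand to GGAAA, the core of sites for NFAT, to TGANTCA, the site for AP-1, to TATAAA, the TATA box, and to AGGTCA, the core of sites for ROR nuclear receptors.
Il17a promoter: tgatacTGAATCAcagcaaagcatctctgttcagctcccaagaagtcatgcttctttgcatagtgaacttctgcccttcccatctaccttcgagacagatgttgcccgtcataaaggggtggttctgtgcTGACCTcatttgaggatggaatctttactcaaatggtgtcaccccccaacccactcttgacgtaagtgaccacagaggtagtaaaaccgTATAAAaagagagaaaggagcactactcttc
Il17f promoter: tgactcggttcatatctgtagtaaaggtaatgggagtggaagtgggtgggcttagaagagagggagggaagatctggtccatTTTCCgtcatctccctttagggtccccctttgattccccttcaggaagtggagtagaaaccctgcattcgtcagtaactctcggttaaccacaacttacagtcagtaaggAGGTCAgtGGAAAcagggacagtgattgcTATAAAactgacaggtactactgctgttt
Csf2 promoter: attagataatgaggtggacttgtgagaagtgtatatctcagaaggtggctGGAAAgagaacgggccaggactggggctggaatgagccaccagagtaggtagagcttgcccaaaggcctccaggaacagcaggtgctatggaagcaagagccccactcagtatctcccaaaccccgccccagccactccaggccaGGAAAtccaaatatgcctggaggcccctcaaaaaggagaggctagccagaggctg
Il13 promoter: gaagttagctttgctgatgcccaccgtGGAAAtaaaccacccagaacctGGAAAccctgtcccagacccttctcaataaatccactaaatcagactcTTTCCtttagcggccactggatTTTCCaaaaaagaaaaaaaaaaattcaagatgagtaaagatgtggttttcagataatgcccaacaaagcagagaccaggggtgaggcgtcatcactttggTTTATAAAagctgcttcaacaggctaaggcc
Matches on the opposite strand read as the reverse complement, such as TGACCT in Il17a. Il17a and Il17f both carried an AGGTCA match, whose leftmost base lay 120 bases before the start in Il17a and 58 in Il17f, and a TATAAA match 31 and 29 bases before it. In Il13 matches to TATAAA on both strands overlapped each other 31 and 29 bases before the start, and 4 matches to GGAAA lay further upstream. Csf2 held 2 matches to GGAAA and none of the other 3 motifs.

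RefSeq promoter windows were matched for 9 of the 10 genes. GGAAA was found in 8 of these 9 genes and in 55.6% of all 32851 promoter windows of that length. TATAAA was found in 5 of 9, Il17a, Il17f, Il2, Ifng and Il13, against 12.4% of all windows. AGGTCA was found in 2 of 9 against 14.0%, and TGANTCA in 2 of 9, Il17a and Il9, against 6.75%. A match is a run of letters and not a shown site of binding, and Il4 counts as matched where either of its windows holds the motif.

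Of the 10 cytokine genes, 1, Il13, was called above background, beside 46.2% of all named genes. The median of the 10 mean levels was 5.60, against 6.16 over all named genes. In 7 of the 10, fewer than 10% of the background genes lay at or above the cytokine. That count was not made over all named genes. Of these, 57.2% already had an unadjusted rank p under 0.05, a tighter limit than 10%, so the 7 do not set the cytokines apart. An unadjusted rank p under 0.05, a looser rule than the adjusted call, was met by 4 of the 10 cytokines. Il10 was the 1 gene below the background median. Set by the number of the 1225 background genes at or above each, the order was Il13 with 16, Csf2 with 32, Il17f with 54, Il17a with 57, Ifng with 79, Il4 with 84, Il2 with 106, Il9 with 227, Il5 with 406 and Il10 with 850. This order says how far each probe set stood out of background and is not an order of RNA amounts.

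Other rules of calling gave from 0 to 4 of the 10 genes. The 95th percentile of background, passed on all 4 arrays, gave 2, Il13 and Il17f, beside 54.2% of all named genes. A one-sided test in limma against that percentile gave 1, Il13, beside 53.8%. The rank p without adjustment gave 4, Il13, Csf2, Il17f and Il17a, beside 57.2%. Passing each other-organ gene on all 4 arrays was met by 0 of the 10, beside 24.3%.

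**Figure D1:**
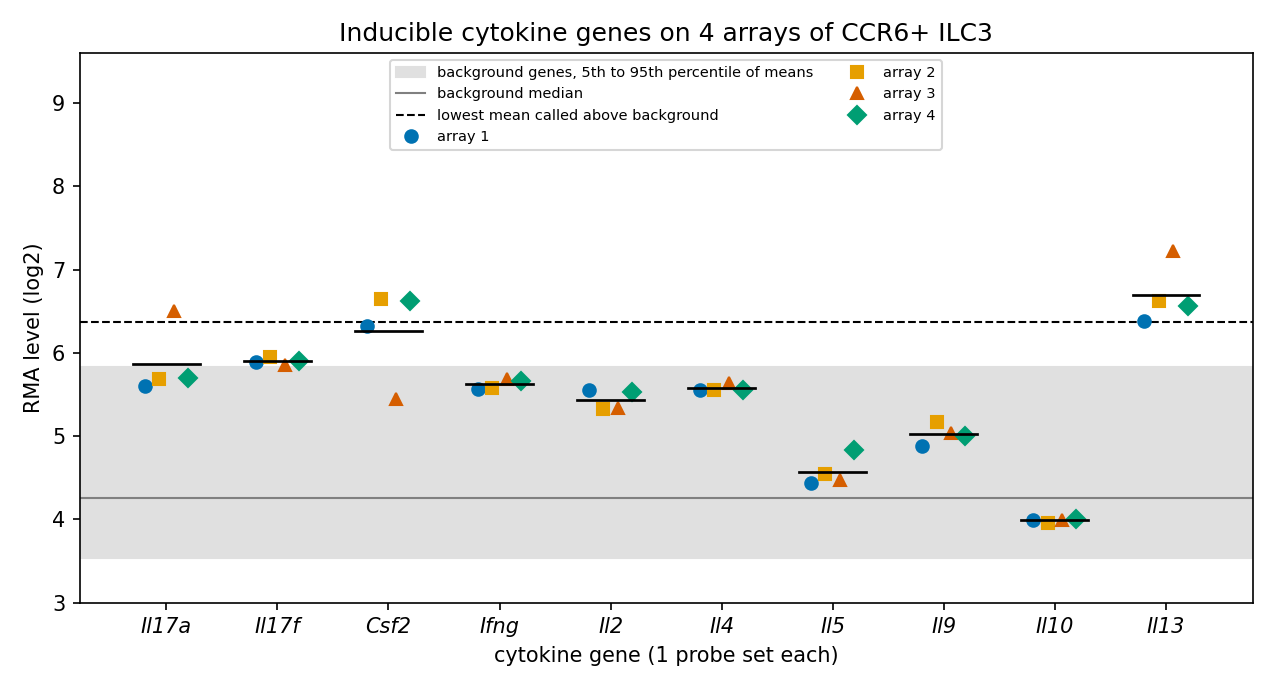
RMA level (log2, vertical axis) of the 10 cytokine genes on arrays 1 to 4, with the mean as a black bar, the 5th to 95th percentile of background means in grey, the background median as a grey line and the lowest mean called above background, 6.37, as a dashed line. Il13 alone has its mean above the dashed line, and array 3 holds the highest value of Il17a, 6.50, and the lowest of Csf2, 5.44.

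The genes of the type 3 response were read first. Il17a, which encodes the interleukin that recruits neutrophils through epithelial and stromal cells, was at 5.60, 5.68, 6.50 and 5.70 on arrays 1 to 4. Array 3 was high, and the other 3 arrays lay between 5.60 and 5.70, under the 95th percentile of background. The mean was 5.87 ± 0.42 (SD, n = 4, the form used for every mean below), which was not called (adjusted p 0.0833). Only on array 3 was Il17a above the 95th percentile of background, with 1.47% of background genes at or above it there and 5.96% to 6.45% on the other arrays.

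Il17f, its closest relative, whose product pairs with itself or with IL-17A, was at 5.89, 5.95, 5.85 and 5.90. The 4 arrays were nearly level, and array 3 was the lowest of them. The mean of 5.90 ± 0.04 was not called (adjusted p 0.0807) and lay 0.47 below the calling level, although each array was above its 95th percentile of background. At nearly the same mean level as Il17a, its SD was 0.04 against 0.42.

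Csf2 encodes GM-CSF, which ILC3 are known to give to dendritic cells and macrophages. It was at 6.33, 6.65, 5.44 and 6.63. Array 3 was low by about 1 log2 unit, and the highest array stood 2.30-fold above the lowest. The mean of 6.26 ± 0.56 fell short of the call (adjusted p 0.0553). Without array 3 it was 6.53 and was called, with an adjusted p of 0.0453, in a range from 0.0385 to 0.0711 over 11 alternatives that give one.

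Ifng, the type 1 cytokine that activates macrophages, was at 5.56, 5.58, 5.69 and 5.67. The arrays were close together and none was above the 95th percentile of background. The mean was 5.62 ± 0.06 and was not called (adjusted p 0.106). Il2, which feeds T cells and regulatory T cells and is also made by gut ILC3, was at 5.55, 5.32, 5.33 and 5.53, with no array apart from the rest. Its mean of 5.43 ± 0.13 was not called (adjusted p 0.132).

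Among the type 2 cytokines, Il13, which drives mucus and smooth muscle responses, was the 1 gene called. It was at 6.38, 6.62, 7.22 and 6.56 on arrays 1 to 4, and every array was above its 95th percentile of background. Array 3 was the highest, 1.80-fold above array 1, and the others lay between 6.38 and 6.62. The mean was 6.69 ± 0.37 with an adjusted p of 0.0336, which ranged from 0.00128 to 0.0484 over 11 alternatives. Without array 3 it was still called, at 6.52. On array 3 the highest gene of other organs was at 7.40, above the Il13 value there.

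Il4, which switches B cells to IgE and steers T helper cells, was at 5.56 on arrays 1, 2 and 4, with the same value to all printed digits, and at 5.64 on array 3. Such ties occurred on at least 3 arrays for 3.68% of all named genes, so the SD of the mean, 5.58 ± 0.04, may be too small. Il4 was not called (adjusted p 0.11). Il5, the growth factor of eosinophils, was at 4.43, 4.54, 4.47 and 4.83, highest on array 4. Its mean of 4.57 ± 0.18 lay 0.31 above the background median, and 33.1% of background genes were at or above it. Il9, a growth factor of mast cells, was at 4.88, 5.16, 5.04 and 4.997, with a mean of 5.02 ± 0.12. Neither Il5 nor Il9 was called, and neither was above the 95th percentile of background on any array.

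Il10, which dampens macrophage and dendritic cell activity, was at 3.99, 3.96, 4.00 and 4.00. Its mean of 3.99 ± 0.02 lay below the background median, with 69.4% of background genes at or above it. It had the smallest SD of the 10 genes, and 95.4% of all named genes had a larger or equal SD. A level in the bulk of background cannot tell low RNA from a probe set that binds weakly, and fewer cells with a transcript cannot be told apart from less of it per cell.

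The 10 genes differed in how level they were across arrays. In 5 of them, Il17f, Ifng, Il2, Il4 and Il10, the arrays spanned less than 0.25 log2 units, as they did in 51.1% of all named genes. In 4 of them, Csf2, Il17a, Il13 and Il5, the SD exceeded 0.176, the 95th percentile of SDs of background genes, which 29.0% of all named genes also did. For Csf2 1.83% of all named genes had an SD as large, for Il17a 4.43% and for Il13 6.61%. Array 3 held the highest value of 4 of the 10 genes, Il17a, Ifng, Il4 and Il13, and the lowest of 2, Il17f and Csf2. It was not alone in this, as array 1 held the lowest value of 6, with Il4 tied, and array 2 the highest of 3.

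Marker genes of other cells also differed on array 3. The 12 T cell markers, 10 of them above background, had a mean level of 7.77 on array 3 and of 7.43 to 7.45 on the others, with 7 of the 12 highest there. Cd3g, a chain of the T cell receptor complex, was at 9.51 on array 3 and between 8.47 and 8.59 elsewhere. The list did not move as a whole. Cd3e, another chain of the complex, was at 9.07 on both arrays 1 and 3, against 8.60 and 8.89 on arrays 2 and 4. Cd5 was lowest on array 3, at 7.39. The 11 B cell markers, 10 of them called, had means of 8.67, 7.86, 8.83 and 7.86 on arrays 1 to 4. The 11 ILC3 markers were all called. They include the genes of the sort markers CD127, CD90.2 and CCR6, whose calls follow from the sort and do not test what the cells are. The list also shares Ltb and Tnfsf11 with the lymphotoxin and RANKL genes below. The ILC3 list mean was 10.34 on array 3 and 10.45 to 10.49 on the others, with 4 of the 11 lowest on array 3 and 1 highest. Whether T or B cells had a part in the Il17a, Il13 and Csf2 values of array 3 was not tested.

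Other cells known to carry type 2 or type 1 cytokines were also read. The 8 ILC2 markers had list means of 6.83, 6.995, 6.94 and 6.80. Of them 4 were called, Cysltr1, Gata3, Arg1 and Il17rb, beside 46.2% of all named genes. Of these, Il17rb was at 7.18 on array 3 and 7.15 on array 1 against 6.22 and 6.21 on arrays 2 and 4, and on those arrays alone it was not called. Hpgds, the prostaglandin D synthase of ILC2 and mast cells, was at 5.17 ± 0.25 and not called. Of 8 mast cell and basophil markers 0 were called, also by limma's test, and 1 had an unadjusted rank p under 0.05. Their means were 4.75 to 4.85. Of 12 natural killer cell and ILC1 markers 7 were called, beside 46.2% of all named genes, with list means of 6.64, 6.94, 6.69 and 6.43. The highest means were those of Ccl5 at 9.81 ± 0.83, Klrk1 at 8.28 ± 0.61, the chemokine gene Xcl1 at 8.06 ± 0.58 and the NK1.1 gene Klrb1c at 8.02 ± 0.05. Eomes and Gzmb were at 4.80 ± 0.08 and 4.79 ± 0.26 and were not called. Gzma, a granzyme gene, was at 5.19, 7.89, 5.41 and 5.94, with array 2 high, and its mean of 6.11 ± 1.23 was not called but passed without array 1, at 6.41. Of 11 dendritic cell markers 5 were called, as were 1 of 8 eosinophil and neutrophil markers and 2 of 9 monocyte and macrophage markers, or 4 without array 2. Counts near the 46.2% of all named genes do not show that a cell type was present.

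**Figure D2:**
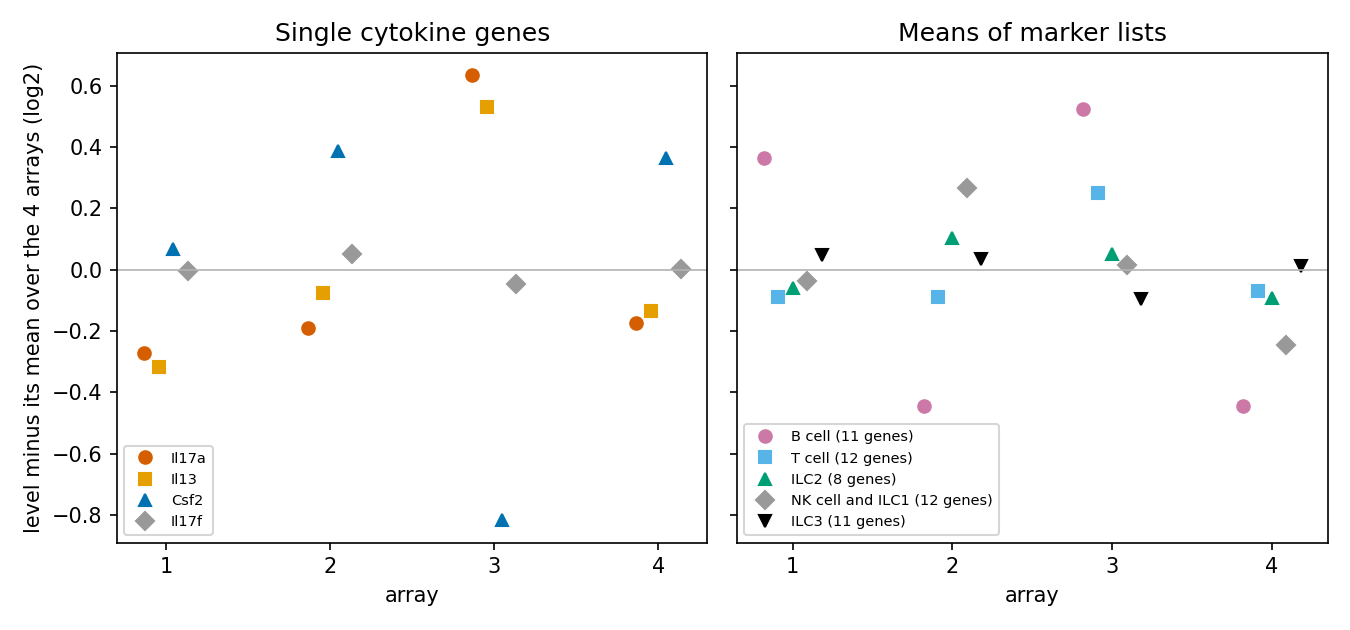
Level minus its own mean over the 4 arrays (log2, vertical axis) by array, for 4 cytokine genes on the left and for the mean of 5 marker lists on the right; each point is 1 array. On array 3, Il17a and Il13 were high and Csf2 was low, while the T cell list was at 7.77 and the B cell list at 8.83, their highest, and the ILC3 list at 10.34, its lowest.

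The genes most like each varying cytokine were sought among 85 listed genes with an SD over the same limit, by the root mean square difference of the 4 centred values. The nearest to Il17a were Adgre1, a macrophage marker that was itself not called, at 0.07 log2 units, Il13 at 0.08 and Cd3g at 0.10. The nearest to Il13 were Il17a at 0.08, Il9r at 0.10 and Hpgds at 0.11. Csf2 had no gene as near, the closest being Zc3h12a at 0.22, Batf at 0.26 and Tnfsf11 at 0.31. Kit at 0.07, Cd5 at 0.10 and Stat5b at 0.11 were nearest to Il5. With 4 arrays this is a description of likeness and carries no test.

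Other cytokine genes, most of the same families and some of others, such as Il6 and Il33, gave a like picture. Of 17 measured, 2 were called, beside 46.2% of all named genes, with a median of mean levels of 5.35. Il15, which sustains lymphocytes, was at 6.90 ± 0.34, and Il17b, a distant relative of Il17a, at 6.69 ± 0.08. Il17c at 6.04 ± 0.10 and Il25 at 5.75 ± 0.10 were not called, nor was Il21 at 3.82 ± 0.04 or Il3 at 3.91 ± 0.06. Il22 shares its probe set with another gene name and is not analysed here. By contrast, the genes of lymphotoxin, TNF, RANKL and TGF-beta1 were called in 5 of 5 cases, beside 46.2% of all named genes. The lowest of these 5 on every array, Tnfsf11, lay between 7.84 and 8.31.

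The receptors for the 10 cytokines were called in 10 of 16 cases, beside 46.2% of all named genes. Their median of mean levels was 7.05. Both measured interleukin 2 receptor chains stood high, Il2ra at 11.46 ± 0.09 and Il2rb at 10.48 ± 0.12, and Il2rg is not analysed here. Both chains of the interferon gamma receptor were called, Ifngr1 at 10.61 ± 0.14 and Ifngr2 at 9.68 ± 0.27. Il17ra, the shared chain for IL-17A and IL-17F, was at 8.92 ± 0.07, and its partner Il17rc was at 6.96 ± 0.26. Il4ra, which serves both IL-4 and IL-13, was at 8.65 ± 0.33, whereas the IL-13 chains Il13ra1 at 4.64 ± 0.03 and Il13ra2 at 3.85 ± 0.06 were not called.

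The remaining receptors were called in part. For GM-CSF, Csf2ra was called at 7.14 ± 0.12, while the signalling chains Csf2rb at 6.11 ± 0.37 and Csf2rb2 at 5.97 ± 0.09 were not. Csf2rb and Csf2rb2 are close copies, so their probe sets may cross-read. For IL-10, Il10rb, a chain shared with the IL-22 receptor, was called at 7.68 ± 0.21, and the specific chain Il10ra at 6.33 ± 0.30 was not, although it was without array 2, at 6.45. Il5ra at 4.54 ± 0.11 was not called. Il9r, at 6.37 ± 0.27, was called at the very edge and was lost without array 3, at 6.25, and without array 4, at 6.42.

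Receptors for the signals that induce these cytokines were called in 12 of 14 cases, beside 46.2% of all named genes. Their median of mean levels was 7.75, and 6 of them passed each other-organ gene on all 4 arrays, beside 24.3%. For interleukin 23, Il23r was at 11.25, 11.20, 11.19 and 11.32 and its partner Il12rb1 at 7.26, 7.45, 7.26 and 7.49, so both chains were called and no array stood apart. Il18r1 and Il18rap, the chains for interleukin 18, were at 11.41 ± 0.11 and 9.50 ± 0.03, and Tnfrsf25, the receptor for TL1A, was at 8.96 ± 0.15. Il12rb2, which completes the receptor for interleukin 12, was at 5.01 ± 0.10 and not called. Il1rap, the shared chain for interleukin 1, was at 6.41, 5.50, 5.46 and 5.79, with array 1 high, and was not called, and Il1r1 is not analysed here. The receptors for the type 2 alarmins IL-25 and TSLP, Il17rb and Crlf2, were called at 6.69 ± 0.55 and 7.07 ± 0.08.

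Transcription factors known to act at these cytokine genes were called in 23 of 26 cases, beside 46.2% of all named genes. This list, like the other gene lists, was chosen with earlier results of these data known. The median of the factors' mean levels was 8.56. Of the factors of the type 3 programme, Rora was at 9.88 ± 0.12, Batf at 9.50 ± 0.35, Stat3 at 9.31 ± 0.07, Runx1 at 8.66 ± 0.15, Ahr at 8.19 ± 0.20 and Maf at 7.71 ± 0.21. Irf4, which works with Batf, was at 5.98, 5.55, 7.21 and 5.39, with array 3 high as for Il17a and Il13, and its mean of 6.03 ± 0.82 was not called. Factors of the type 1 programme were Stat4 at 10.03 ± 0.09, Runx3 at 10.23 ± 0.20 and Tbx21 at 6.52 ± 0.31, which was not called against olfactory receptors alone, and Eomes was not called.

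Factors of the type 2 programme were all called, with Gata3 at 9.72 ± 0.12, Stat6 at 9.05 ± 0.18, Stat5b at 7.97 ± 0.23, Stat5a at 7.49 ± 0.08 and Spi1, which promotes Il9, at 6.76 ± 0.10. Factors that carry activation signals were also called, among them Nfatc3 at 10.33 ± 0.04, Nfatc1 at 8.47 ± 0.26, Nfatc2 at 7.58 ± 0.29, Rela at 9.35 ± 0.21, Rel at 9.16 ± 0.41 and Nfkbiz at 8.13 ± 0.10. Prdm1, a factor that promotes Il10 in T cells, was at 5.30 ± 0.15 and not called.

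Genes that control the life of cytokine RNA were called in 13 of 13 cases, beside 46.2% of all named genes. Their median of mean levels was 9.26, and 12 of them passed each other-organ gene on all 4 arrays, beside 24.3%. Zfp36l1, Zfp36l2 and Zfp36, whose products bind AU-rich elements and hasten decay, were at 10.56 ± 0.09, 10.15 ± 0.44 and 9.31 ± 0.20. Rc3h1 and Rc3h2, the roquins that bind stem-loops, were at 9.26 ± 0.10 and 9.18 ± 0.07, and Cnot1, the scaffold of the deadenylase complex, was at 10.89 ± 0.13. Zc3h12a, which encodes the nuclease Regnase-1, was at 6.83, 6.97, 6.35 and 7.04, lowest on array 3 as was Csf2, with a mean of 6.80 ± 0.31. The list also holds genes whose products stabilise cytokine RNA, Elavl1 at 9.42 ± 0.15 and Arid5a at 8.79 ± 0.04, and Tnfaip3 at 8.16 ± 0.19, whose product restrains NF-kappaB and does not act on RNA itself.

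**Figure D3:**
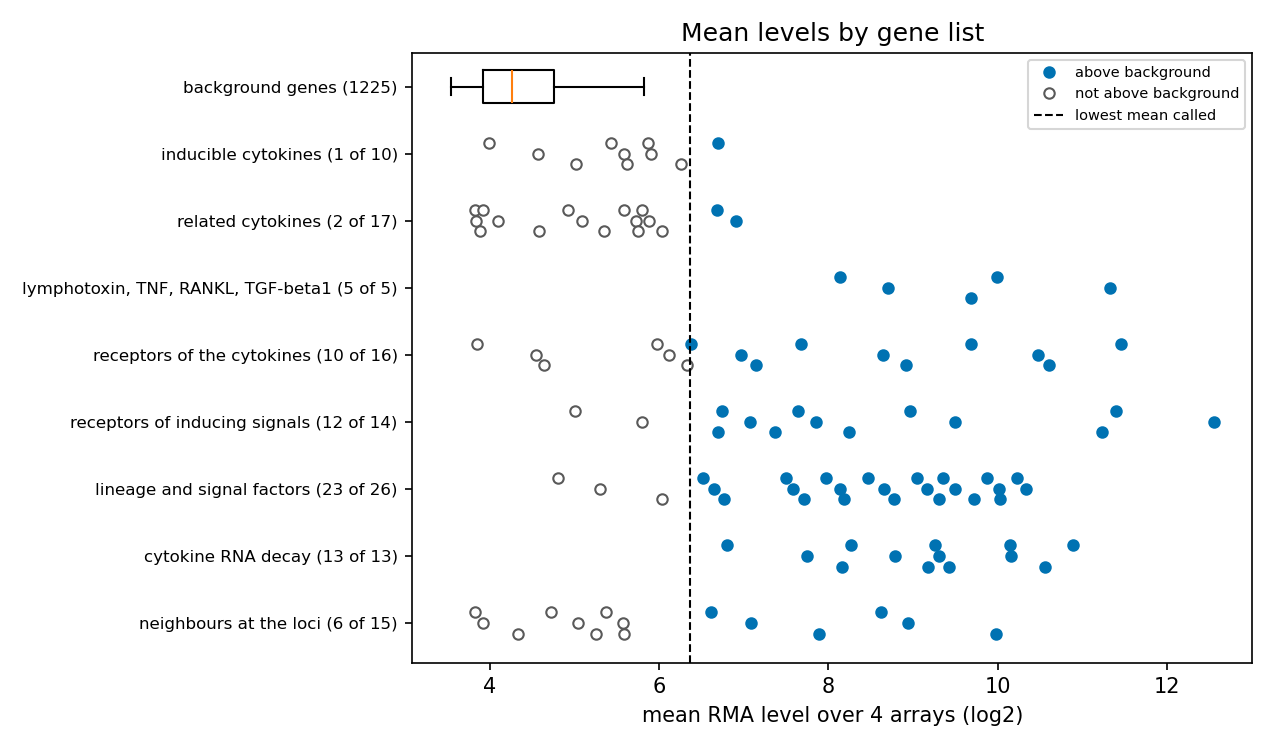
Mean RMA level over 4 arrays (log2, horizontal axis) of each gene by list, filled where called above background and open where not, with called and measured genes counted beside each name; the box shows the quartiles and the 5th to 95th percentile of 1225 background genes. Inducible and related cytokines lie mostly left of the dashed line at 6.37 (1 of 10 and 2 of 17 called), while 13 of 13 RNA decay genes and 23 of 26 factors lie right of it.

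The protein-coding neighbours of the cytokine genes in the RefSeq order were read last. Of 15 neighbours that are not themselves among the 10 genes, 6 were called, 40%, beside 46.2% of all named genes. In the type 2 cytokine locus, Il4 and Il13 are next to each other, and Rad50 lies between Il13 and Il5. Rad50, a DNA repair gene, was called at 8.63 ± 0.15, Irf1 on the other side of Il5 at 8.94 ± 0.14, and Kif3a, a kinesin gene beside Il4, at 7.09 ± 0.23. Mapkapk2, next to Il10, was called at 9.98 ± 0.27 beside an Il10 level of 3.99, although the levels of different probe sets are not comparable as amounts.

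At the other loci, Il17a and Il17f are neighbours, with Mcm3, a replication gene, beyond Il17f at 6.61 ± 0.13 and called, and Pkhd1 beyond Il17a at 5.03 on all 4 arrays and not called. Beside Csf2, Il3 and P4ha2 were not called, at 3.91 ± 0.06 and 5.37 ± 0.10. Beside Il2, Il21 and Adad1 were not called, at 3.82 ± 0.04 and 4.33 ± 0.05. Ifng lies between Dyrk2, called at 7.89 ± 0.30, and Iltifb, a near copy of Il22, which was at 4.52, 5.39, 4.41 and 4.55 and not called. Because the copies are so alike, the Iltifb probe set may read either, and its value is uncertain.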

How the data were processed

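The values are log2 levels per probe set that the authors made with RMA and deposited as 1 table, per the submitters' processing notes; the software, its version and the build are not given in the sources used. RMA corrects background, normalizes arrays and summarises probes by median polish, which can give equal values on several arrays. Of 35556 probe sets, 21789 had 1 gene symbol in GEO's platform annotation, 1621 several (left unnamed) and 12146 were not listed. Symbols were updated through Entrez identifiers to the RefSeq gene table of GRCm38.p6 (21698 matched). The rank p was (k + 1) / (1225 + 1), where k background genes had means no lower than the gene, and could not fall below 0.000816. Alternatives were limma 3.58.1 (R 4.3.3), a one-sided moderated test against each array's 95th percentile of background, other call rules, other probe sets, rescaled arrays and fewer arrays. Calculations used Python 3.11.15, pandas 2.3.3 and numpy 2.4.6 and were tested on simulated data. The number of arrays, 4, limits the precision. The members and gene lists were chosen with earlier results of these data known, so the shares called of each list may partly follow from that choice. The rule for named genes took the 10 cytokines, any gene of the receptor, factor, RNA decay, related cytokine and neighbour lists, and, of each marker list, up to 4 with the highest mean and up to 4 not called; Cd3g, Adgre1 and other profile matches entered as nearest profiles, and Il17rb as a receptor.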

Additional observations from a re-analysis of the deposited data

Results flagged for a closer look

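In Il17a, the gap between array 3 and the nearest other array made up 0.891 of the whole range of the 4 arrays, above the 95% critical value of Dixon's test for 4 values. Without array 3, its mean was 5.66 with an SD of 0.05, and it was not called. In Il4, the ratio was 1, because arrays 1, 2 and 4 held the same value and array 3 lay 0.08 above it. Chance passes this limit in about 1 in 20 genes, and 2 of the 10 cytokines and 14 of 113 listed genes passed it.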

How the results depend on the processing

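Of 14 alternatives for the count of 10 cytokines above background, 9 gave the same 1. Those that took the mean or the lowest of a gene's probe sets could not change a cytokine's level, as each of the 10 has 1 probe set. They are counted among the 9, and among the 11 alternatives that give an adjusted p. Passing the 95th percentile of background on all 4 arrays gave 2 (Il13 and Il17f) and an unadjusted rank p gave 4 (Il13, Csf2, Il17f and Il17a). The range over single arrays left out was 1 to 2, with Csf2 added without array 3, and leaving out arrays 1 and 3 together, chosen after the data were seen, also gave 2. Passing each other-organ gene on all 4 arrays gave 0, while limma's test called 1 and an unadjusted p 4. The other-organ rule also left 6 of 12 receptors of inducing signals and 0 of 2 related cytokines. Related cytokines numbered 4 at the 95th percentile rule and 4 at the unadjusted p. Without arrays 1 and 3 the SD of Il4 was 0. Counts for receptors of the cytokines, factors, RNA decay genes, lymphotoxin and TNF genes and neighbours stayed within 1.5 times under every alternative run. No cause of these changes was tested. No paired analysis was possible because the 4 samples form 1 group. Signal over background limits all 10 cytokines: means below 6.37 were not called, and Il13 lay under 7.42, where genes of unrelated organs are also called.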
